A study of Homo sapiens with 12 samples.

Results

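Maspin, the serpin encoded by SERPINB5, was re-expressed in 2 cell lines of lung squamous cell carcinoma in which the endogenous gene was suppressed, and the transcriptome was sequenced. The results below concern 10 long non-coding RNAs (lncRNAs) studied in many cancers, namely UCA1, MALAT1, NEAT1, H19, MEG3, HOTAIR, GAS5, SNHG1, PVT1 and MIR31HG. They were taken by gene symbol from the tables of raw mapped reads, which named 38434 genes. The set was selected on the measured difference of UCA1 between LC-AI-maspin and LC-AI-ctrl cells, and the other 9 were added by name, so that UCA1 values of the RERF-LC-AI line are a description and carry no test. The LK2-maspin and LC-AI-maspin cells carried a lentiviral vector for maspin together with the fluorescent protein ZsGreen, and the LK2-ctrl and LC-AI-ctrl cells carried the same vector with ZsGreen alone. Each of the 4 was a pool of clones that survived blasticidin, so a group stands for 1 pool. LK-2 cells were grown in RPMI1640 medium and RERF-LC-AI cells in Eagle's minimum essential medium, so medium and line cannot be told apart. There were 3 libraries in each group. The sources used here do not say whether these were separate cultures, so p-values measure only the spread between these libraries.

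Long non-coding RNAs are transcripts without an open reading frame of known function, and the 10 studied here act in different places. UCA1 was first described in bladder carcinoma and is mostly cytoplasmic. MALAT1 is retained in nuclear speckles, the stores of splicing factors, whereas NEAT1 is the scaffold of the paraspeckles, nuclear bodies that form around its long isoform. H19 and MEG3 are transcribed from the maternal copy of 2 imprinted clusters. HOTAIR is transcribed antisense to the HOXC cluster and was described as a partner of the Polycomb repressive complex 2. GAS5 and SNHG1 are host genes of small nucleolar RNAs (snoRNAs), which are released from their introns, while the spliced exons are removed by nonsense-mediated decay. PVT1 lies next to MYC, and MIR31HG is the host gene of miR-31.

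The mature microRNAs of 3 of the loci, MIR31HG, H19 and MEG3, are shown because these short RNAs are known products of the host genes, each lying within the host's span. The letters are from RefSeq (GRCh38.p14), 5′ to 3′, with the seed (bases 2 to 8) in capitals, and none of the 4 seeds is shared.
hsa-miR-31-5p: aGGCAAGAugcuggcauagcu
hsa-miR-675-5p: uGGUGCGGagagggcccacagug
hsa-miR-675-3p: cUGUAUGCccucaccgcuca
hsa-miR-770-5p: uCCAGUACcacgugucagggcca
The first lies in MIR31HG on the minus strand of chromosome 9, the pair of miR-675 arms in H19 on the minus strand of chromosome 11, and miR-770-5p in MEG3 on the plus strand of chromosome 14. Mature microRNAs were not measured by these mRNA libraries.

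Promoter windows, running from 250 bases before the annotated start to 50 after it, were held by the RefSeq table for 6 of the 10 lncRNAs (MALAT1, H19, MEG3, GAS5, SNHG1 and MIR31HG). The windows of MIR31HG and SNHG1 are shown because MIR31HG differed most between the cell lines and SNHG1 was among those that differed least (values below). Capitals mark GC boxes (GGGCGG, either strand) and, in SNHG1, TATAAA on either strand.
MIR31HG promoter: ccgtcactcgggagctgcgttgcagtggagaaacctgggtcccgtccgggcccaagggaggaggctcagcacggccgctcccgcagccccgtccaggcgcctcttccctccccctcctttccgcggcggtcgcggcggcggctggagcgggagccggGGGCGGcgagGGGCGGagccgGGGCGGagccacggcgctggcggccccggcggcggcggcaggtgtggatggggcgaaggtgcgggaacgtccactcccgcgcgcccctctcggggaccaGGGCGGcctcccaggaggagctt
SNHG1 promoter: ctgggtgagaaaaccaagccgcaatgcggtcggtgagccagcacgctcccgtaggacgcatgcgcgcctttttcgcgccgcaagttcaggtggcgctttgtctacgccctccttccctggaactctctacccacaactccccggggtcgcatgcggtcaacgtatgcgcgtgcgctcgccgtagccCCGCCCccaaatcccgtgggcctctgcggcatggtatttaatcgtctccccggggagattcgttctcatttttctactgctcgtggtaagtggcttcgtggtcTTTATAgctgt
The MIR31HG window (chr9:21559749-21560048, minus strand) had a GC content of 77.7% and 39 CpG dinucleotides. The SNHG1 window (chr11:62855836-62856135, minus strand) had 60.0% and 30, and the median over all 35116 windows of the table was 58.7% and 14. A GC box was found in the windows of 3 of the 6 lncRNAs (MALAT1, MIR31HG and SNHG1) and in 45.0% of all windows. TATAAA was found in 3 of 6 (MALAT1, MEG3 and SNHG1) and in 11.5% of all windows, and the CCAAT box in 2 of 6 (GAS5 and MEG3) and in 34.6%. The AP-1 motif TGANTCA, the TEAD motif CATTCC and the E-box CACGTG were in the windows of 0 of 6, against 7.71%, 14.0% and 7.26% of all windows. MALAT1 and MEG3 had alternative windows, and a lncRNA was counted if any of its windows matched, whereas the shares of all windows are per window. The TATAAA match of SNHG1 lay on the opposite strand, within the 50 bases after the start. Both strands were searched, matches of different motifs may overlap, and a match of letters is not evidence of binding.

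In the LK-2 libraries 39802246 to 54941357 reads were counted over named genes, and in the RERF-LC-AI libraries 50143577 to 65454432. SERPINB5, which checks the labels, was at 48.4 to 50.9 reads per 1000000 counted (CPM) in LK2-maspin and 1.87 to 2.02 in LK2-ctrl libraries, and at 437 to 513 CPM in LC-AI-maspin and 0.143 to 0.270 in LC-AI-ctrl libraries. Of 7 squamous markers, TP63 stayed at or below 1.66 CPM in all 12 libraries and KRT14 at or below 0.641. SOX2 was at 401 to 563 CPM in LK-2 and at or below 0.621 in RERF-LC-AI. The basal keratin KRT5 was at 5.62 to 9.07 CPM in LK2-maspin and 0.664 to 1.01 CPM in LK2-ctrl libraries, and at or below 0.0938 CPM in RERF-LC-AI. The sum of the 7, mainly SOX2 in LK-2, ran the other way from KRT5. It was 422 to 483 CPM in LK2-maspin and 529 to 571 CPM in LK2-ctrl libraries, without overlap. Over the RERF-LC-AI libraries the sum was 10.3 to 11.6 CPM, mainly through squamous markers not named here. The neuroendocrine marker INSM1 was at 24.9 to 33.9 CPM in LK-2. Genes were called at an adjusted p under 0.05 (edgeR quasi-likelihood test, Benjamini-Hochberg over all genes tested). In LK-2, 0.533% of 26270 genes tested were called, and in RERF-LC-AI 10.5% of 25197, with 1010 higher and 1645 lower in LC-AI-maspin cells. Scaled by library size alone, the RERF-LC-AI split was 1408 higher and 1287 lower.

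UCA1 lies on chr19:15828947-15836321 (plus strand, GRCh38.p14), between the coding genes OR10H1 and CYP4F2. In RERF-LC-AI it was counted 31, 29 and 47 times in the 3 LC-AI-maspin libraries, against 226, 305 and 272 times in the LC-AI-ctrl libraries. That is 0.597, 0.453 and 0.706 CPM in LC-AI-maspin and 4.37, 5.45 and 5.45 CPM in LC-AI-ctrl cells, with group means of 0.585 ± 0.13 and 5.09 ± 0.63 (SD, n = 3 each). Every LC-AI-maspin library was below every LC-AI-ctrl library, and the log2 fold change was -3.11 ± 0.19 (SE), or 8.66-fold lower. This difference singled UCA1 out, and it is given without a test. In LK-2, UCA1 was counted 45, 51 and 78 times (0.840, 1.29 and 1.67 CPM) in LK2-maspin and 16, 60 and 56 times (0.336, 1.11 and 1.24 CPM) in LK2-ctrl libraries. The groups overlapped, 1 LK2-ctrl library was low, and the log2 fold change of 0.49 ± 0.41 (SE) did not pass the test (edgeR adjusted p = 0.98). Ordered by mean CPM, UCA1 was highest in LC-AI-ctrl, then LK2-maspin, LK2-ctrl and LC-AI-maspin cells. LC-AI-ctrl stood clear of the other groups, whereas LK2-maspin overlapped LK2-ctrl, and LK2-ctrl overlapped LC-AI-maspin. The antisense transcript LINC01764 that overlaps UCA1 had 0 to 4 counts in each of the 12 libraries.

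**Figure D1:**
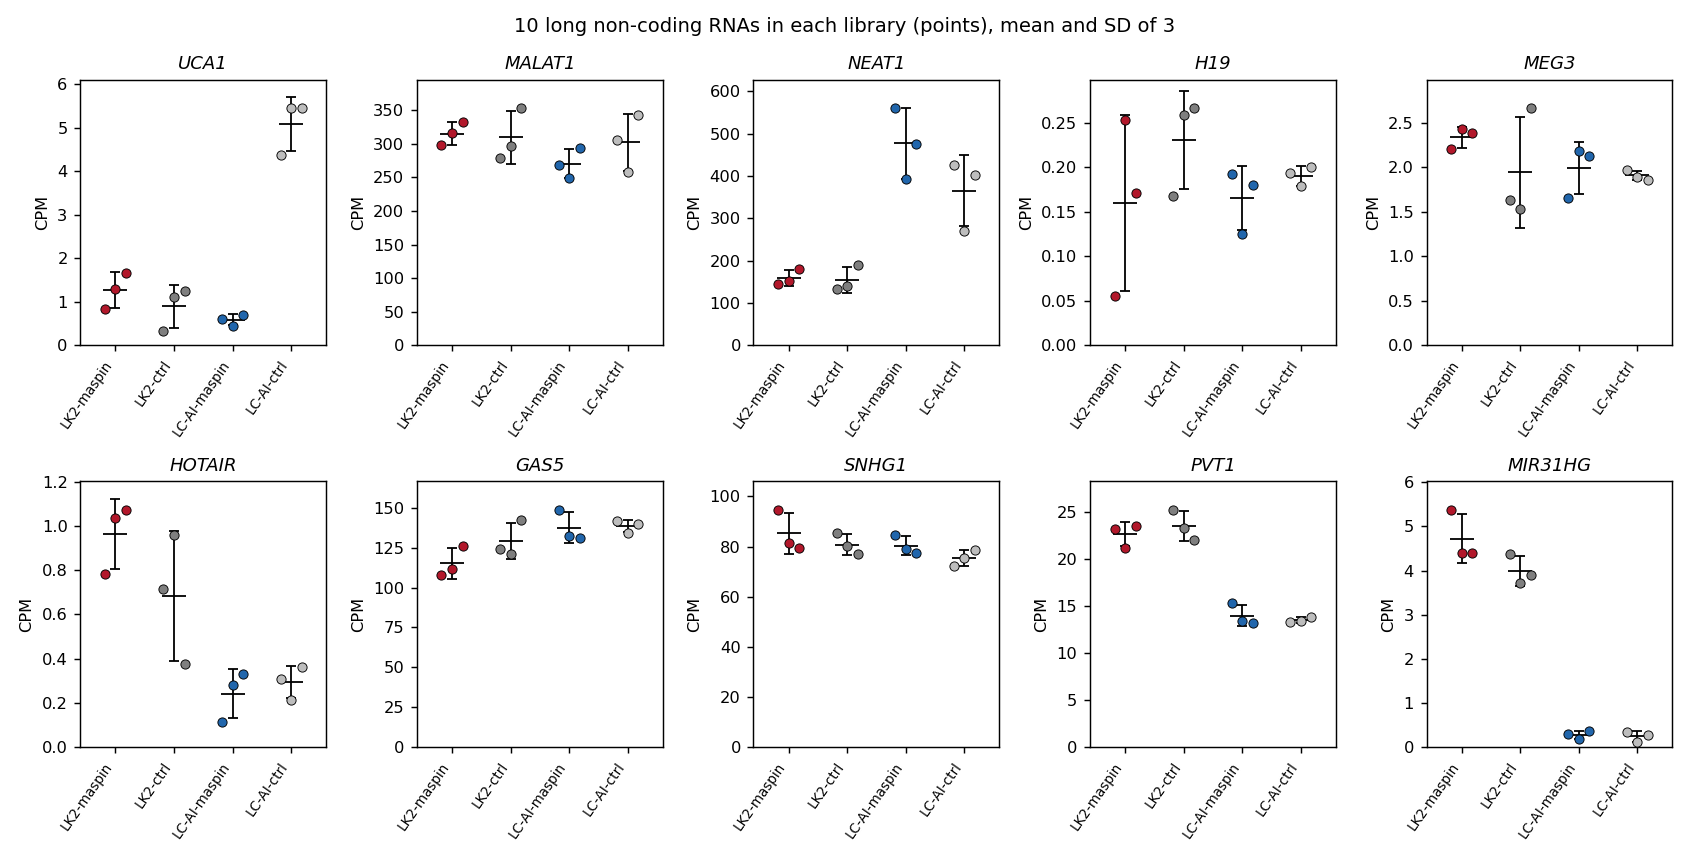
CPM of each of the 10 lncRNAs (vertical axes, linear, from 0) in the 3 libraries of LK2-maspin, LK2-ctrl, LC-AI-maspin and LC-AI-ctrl cells (points), with the mean and SD as black lines. UCA1 sits at 4.37 to 5.45 CPM in LC-AI-ctrl and at or below 1.67 CPM in every other library, and MIR31HG at or below 0.360 CPM in all RERF-LC-AI libraries.

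Markers of other cell types were followed in the same libraries. The 4 fibroblast markers summed to 21.3 to 24.0 CPM in LC-AI-maspin and 29.9 to 45.7 CPM in LC-AI-ctrl cells, mainly through the collagen gene COL1A2, at 13.9 to 16.4 CPM in LC-AI-maspin and 24.3 to 38.5 CPM in LC-AI-ctrl libraries. The 3 leukocyte markers summed to 39.6 to 44.5 CPM in LC-AI-maspin and 43.5 to 44.2 CPM in LC-AI-ctrl cells, and the pair of endothelial markers to 2.25 to 2.45 and 1.38 to 2.04 CPM. Their part in the UCA1 values was not tested.

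The 5 genes whose profile was most like that of UCA1 over the 12 libraries were IL7R, MGC32805, NMNAT2, ITGB4 and ADAP1, out of 16323 genes compared. Only genes tested in RERF-LC-AI with a mean of at least 1 CPM in LC-AI-ctrl cells were compared. That is the group where UCA1 was highest, so the likeness is a description and carries no test. Likeness was the root mean square difference between log2 CPM profiles, each centered on its mean, and it was 0.78 for IL7R, 0.80 for MGC32805, 0.83 for NMNAT2, 0.83 for ITGB4 and 0.84 for ADAP1. IL7R, the interleukin-7 receptor alpha chain, averaged 3.34 ± 0.52 CPM in LC-AI-maspin and 12.8 ± 0.99 CPM in LC-AI-ctrl cells (SD, n = 3 each). ITGB4, the integrin beta subunit of hemidesmosomes, averaged 40.2 ± 5.3 CPM in LC-AI-maspin and 110 ± 25 CPM in LC-AI-ctrl cells. The uncharacterized gene MGC32805 averaged 1.99 ± 0.44 CPM in LC-AI-maspin and 5.01 ± 0.83 CPM in LC-AI-ctrl cells. NMNAT2, an enzyme of NAD synthesis, averaged 3.09 ± 1.2 and 6.96 ± 0.39 CPM in these groups, and the Arf GTPase-activating protein gene ADAP1 7.62 ± 0.26 and 16.7 ± 0.99 CPM. All 5 were lower in LC-AI-maspin than in LC-AI-ctrl cells, as the choice by likeness fixed, but by less than UCA1, since their fold changes were between 2.19-fold and 3.82-fold lower. Among the cytochrome P450 neighbours of UCA1, CYP4F11 was at 0.875 to 1.55 CPM in LC-AI-maspin and 0.701 to 1.45 CPM in LC-AI-ctrl libraries, with a log2 fold change of 0.14 ± 0.26 (edgeR adjusted p = 0.83). CYP4F12 had a log2 fold change of 0.00 ± 0.46 there (adjusted p = 1.0), and CYP4F2, at or below 0.330 CPM in all 12 libraries, was under the filter on low counts in both lines. In LK-2, CYP4F11 was at 17.1 to 19.3 CPM in LK2-maspin and 21.4 to 22.8 CPM in LK2-ctrl libraries, and its log2 fold change of -0.25 ± 0.08 did not pass the test (adjusted p = 0.45).

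**Figure D2:**
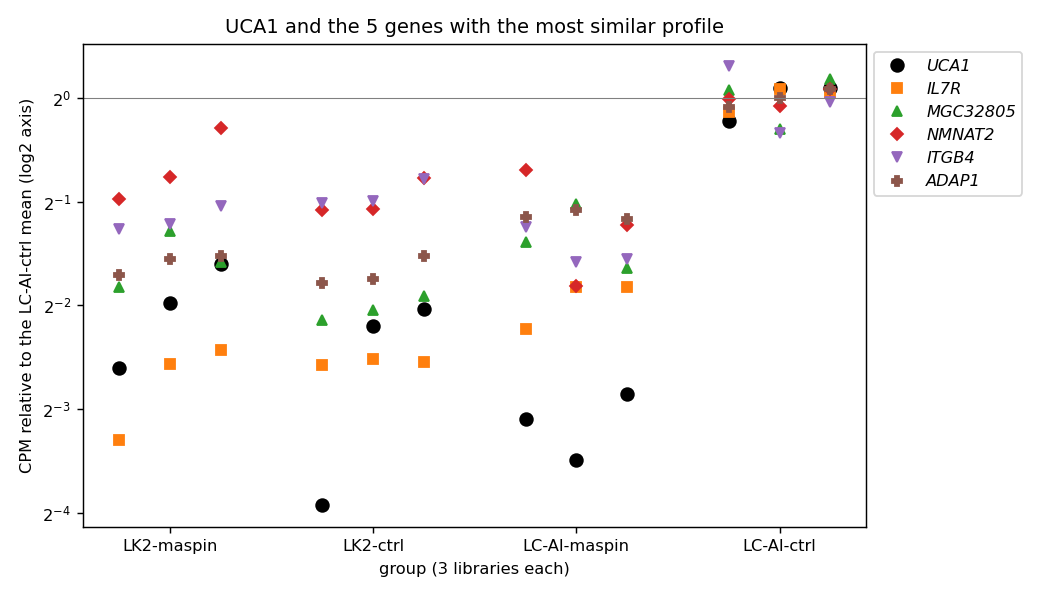
CPM of UCA1 and of the 5 genes most like it, divided by the gene's mean in LC-AI-ctrl cells (vertical axis, log2 scale), in the 3 libraries of each group. All LC-AI-maspin points lie below the LC-AI-ctrl points of the same gene, and UCA1, 8.66-fold lower, moved further than IL7R, 3.82-fold lower.

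NEAT1 (chr11:65422798-65445540, plus strand) and MALAT1 (chr11:65497738-65506516, plus strand) are neighbours on the long arm, next to FRMD8. NEAT1 was counted 29087, 25231 and 31765 times in LC-AI-maspin and 22036, 15120 and 20071 times in LC-AI-ctrl libraries, or 560, 394 and 477 CPM against 426, 270 and 402 CPM. It rose in LC-AI-maspin cells, with a log2 fold change of 0.38 ± 0.10 (SE, edgeR adjusted p = 0.014), although the lowest LC-AI-maspin library lay below the upper LC-AI-ctrl libraries. The call was lost without LC-AI-maspin replicate 1 (adjusted p = 0.17), without LC-AI-ctrl replicate 2 (0.086), with DESeq2 (0.30) and with all 12 libraries in 1 fit (0.19), and the adjusted p over all alternatives ran between 6.3e-14 and 0.30. MALAT1 was at 268, 250 and 293 CPM in LC-AI-maspin and 305, 258 and 343 CPM in LC-AI-ctrl cells. Its groups overlapped, and the log2 fold change was -0.16 ± 0.07 (adjusted p = 0.16). Without LC-AI-ctrl replicate 2, the library lowest in both RNAs among the LC-AI-ctrl ones, the MALAT1 value was -0.26 (adjusted p = 0.0020), and without a filter on low counts it was also called (adjusted p = 0.020). In LK-2, NEAT1 was at 144, 152 and 180 CPM in LK2-maspin and 134, 141 and 190 CPM in LK2-ctrl cells, and MALAT1 at 298, 316 and 332 CPM against 278, 297 and 353 CPM. Neither differed beyond its spread there, at log2 fold changes of 0.04 ± 0.12 for NEAT1 and 0.03 ± 0.08 for MALAT1 (adjusted p = 1.0 each).

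The ratio of NEAT1 to MALAT1 reads, which does not depend on scaling between libraries and was chosen after the values were seen, was 2.09, 1.58 and 1.63 in LC-AI-maspin and 1.39, 1.05 and 1.17 in LC-AI-ctrl libraries. These groups did not overlap, and the exact two-sided permutation test gave p = 0.10, the smallest that 3 libraries against 3 allow. In LK-2 the ratio was 0.484, 0.481 and 0.542 in LK2-maspin and 0.480, 0.475 and 0.537 in LK2-ctrl libraries, nearly equal in the 2 groups (exact permutation p = 0.50).

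**Figure D3:**
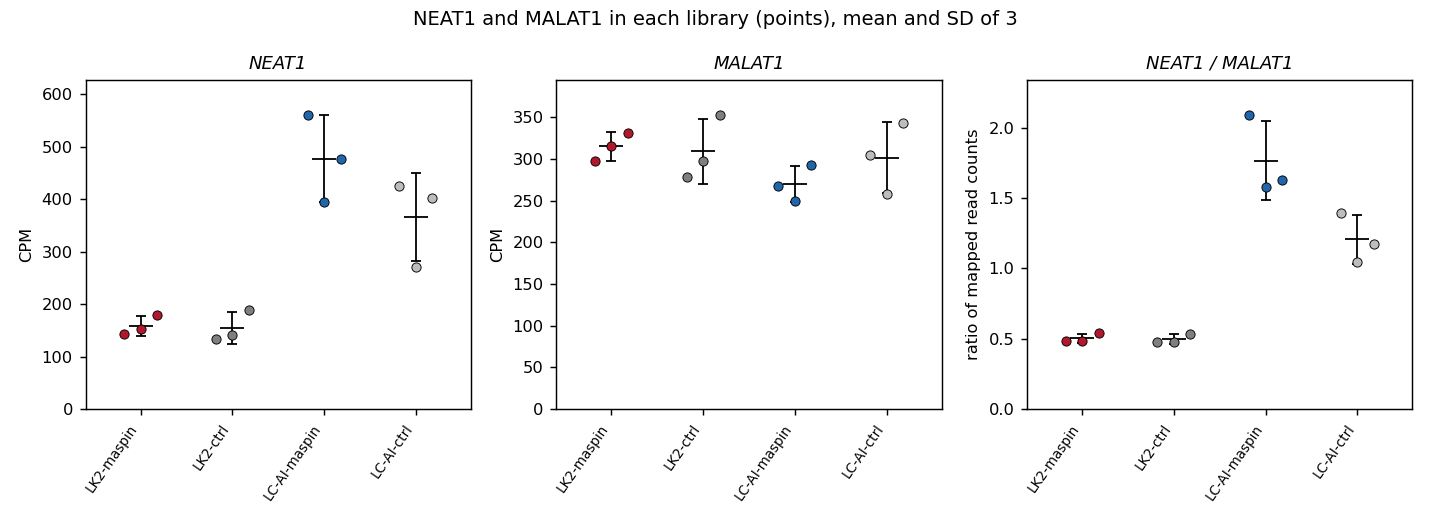
CPM of NEAT1 and MALAT1 and the ratio of their read counts (vertical axes, linear, from 0) in the 3 libraries of each group (points), with mean and SD as black lines. The ratio lies between 1.58 and 2.09 in LC-AI-maspin and between 1.05 and 1.39 in LC-AI-ctrl cells, and between 0.475 and 0.542 in all LK-2 libraries.

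Of the coding genes beside NEAT1 and MALAT1, FRMD8, a cofactor of the iRhom proteins, fell in LC-AI-maspin cells, at 36.4, 36.1 and 38.5 CPM against 40.0, 44.1 and 43.0 CPM in LC-AI-ctrl cells (log2 fold change -0.19 ± 0.06, adjusted p = 0.024). It kept this call in 2 of 6 fits that left out 1 library, and lost it without LC-AI-maspin replicate 1 (0.089) or 2 (0.11) and without LC-AI-ctrl replicate 2 (0.10) or 3 (0.12). FRMD8 also lost the call with all 12 libraries in 1 fit (0.17) and with library size only (0.076). LTBP3, which encodes a latent TGF-beta binding protein, did not pass (-0.18 ± 0.12, adjusted p = 0.43). Of 12 paraspeckle proteins, 0 rose, 2 fell and 10 did not pass in LC-AI-maspin cells, and 6.53% of all genes fell. Those that fell were HNRNPK (log2 fold change -0.18 ± 0.05, adjusted p = 0.0080) and RBM14 (-0.21 ± 0.06, adjusted p = 0.013), both RNA-binding proteins. HNRNPK was called in 3 of 6 fits that left out 1 library, and lost without LC-AI-maspin replicate 3 (0.073) and without LC-AI-ctrl replicate 2 (0.058) or 3 (0.054). RBM14 was called in 2 of 6, and lost without LC-AI-maspin replicate 1 (0.066) or 3 (0.10) and without LC-AI-ctrl replicate 2 (0.11) or 3 (0.064). With all 12 libraries in 1 fit, HNRNPK (0.10) and RBM14 (0.22) were not called. The list's median was -0.07, against 0.01 over all genes tested. Of 13 nuclear speckle proteins 0 were called by edgeR in RERF-LC-AI, beside 10.5% of all genes (1 at an unadjusted p under 0.05, 1 by DESeq2, 0 by the likelihood ratio test). In LK-2, 0 of 12 paraspeckle and 0 of 13 speckle proteins were called by edgeR (1 and 0 at an unadjusted p under 0.05, and 0 by DESeq2 or the likelihood ratio test). The share called over all genes in LK-2 was 0.533%.

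GAS5 (chr1:173863901-173869045, minus strand) and SNHG1 (chr11:62851978-62855885, minus strand), the snoRNA hosts, were not called in either line. GAS5 was at 149, 133 and 131 CPM in LC-AI-maspin and 141, 134 and 140 CPM in LC-AI-ctrl cells, a log2 fold change of -0.01 ± 0.05 (adjusted p = 0.95) whose sign turned under other scalings. SNHG1 was at 84.7, 78.9 and 77.4 CPM in LC-AI-maspin and 72.4, 75.3 and 78.8 CPM in LC-AI-ctrl cells (0.09 ± 0.05, adjusted p = 0.34). In LK-2, GAS5 was at 108, 112 and 126 CPM in LK2-maspin and 124, 121 and 142 CPM in LK2-ctrl cells, a log2 fold change of -0.17 ± 0.08 that did not pass the test (adjusted p = 0.82). SNHG1 was at 94.6, 81.6 and 79.6 CPM in LK2-maspin and 85.3, 80.1 and 77.0 CPM in LK2-ctrl cells (0.08 ± 0.08, adjusted p = 1.0). Of the genes at their borders, WDR74 and SLC3A2, the heavy chain of amino acid transporters which begins 0.118 kb from the annotated start of SNHG1, did not pass in either line. SLC3A2 was at 437, 477 and 438 CPM in LK2-maspin and 395, 400 and 347 CPM in LK2-ctrl cells (log2 fold change 0.24 ± 0.07, adjusted p = 0.29). ZBTB37, which overlaps GAS5 on the other strand, had a log2 fold change of 0.16 ± 0.06 in RERF-LC-AI (adjusted p = 0.068) and -0.02 ± 0.06 in LK-2 (adjusted p = 1.0).

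Of 26 other snoRNA host lncRNAs tested in RERF-LC-AI, 0 rose, 1 fell and 25 did not pass. Of all genes tested there, 6.53% fell and 10.5% were called in either direction. SNHG7 was at 41.1, 37.9 and 40.0 CPM in LC-AI-maspin and 49.0, 54.2 and 48.7 CPM in LC-AI-ctrl cells (log2 fold change -0.35 ± 0.06, adjusted p = 6.4e-05), without overlap, and the call held in 6 of 6 fits that left out 1 library but not with all 12 libraries in 1 fit (adjusted p = 0.061). The median over the list was 0.05. In LK-2, 0 of 27 were called by edgeR, beside 0.533% of all genes (1 at an unadjusted p under 0.05, 0 by DESeq2 or the likelihood ratio test). Of 15 factors of nonsense-mediated decay, 0 were called by edgeR in either line (1 in each at an unadjusted p under 0.05, 0 by DESeq2 or the likelihood ratio test).

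The imprinted lncRNAs were low. H19 (chr11:1995176-2001266, minus strand) had 10, 8 and 12 counts in LC-AI-maspin and 10, 10 and 10 in LC-AI-ctrl libraries, and 3, 10 and 8 counts in LK2-maspin and 8, 14 and 12 in LK2-ctrl libraries. At such counts small changes were not detectable, since the SE was 0.52 in RERF-LC-AI and 0.60 in LK-2 around log2 fold changes of -0.20 and -0.57 (adjusted p = 0.89 and 1.0). IGF2, the paternally expressed growth factor gene of the same cluster, was at 6.82, 7.19 and 8.92 CPM in LC-AI-maspin and 9.68, 7.57 and 8.90 CPM in LC-AI-ctrl cells (log2 fold change -0.18 ± 0.11, adjusted p = 0.39), and stayed at or below 1.01 CPM in LK-2. MEG3 (chr14:100826108-100861026, plus strand) was at 1.66, 2.19 and 2.13 CPM in LC-AI-maspin and 1.97, 1.89 and 1.86 CPM in LC-AI-ctrl cells (0.07 ± 0.18, adjusted p = 0.90). In LK-2 it was at 2.20, 2.43 and 2.38 CPM in LK2-maspin and 1.64, 1.53 and 2.67 CPM in LK2-ctrl cells (0.27 ± 0.22, adjusted p = 0.98), the highest value being that of an LK2-ctrl library. MEG8 of the same cluster did not pass in either line (log2 fold changes of 0.13 ± 0.30 in RERF-LC-AI and 0.32 ± 0.27 in LK-2, adjusted p = 0.88 and 0.98). MEG9 was at 0.560, 0.405 and 0.257 CPM in LK2-maspin and 0.126, 0.111 and 0.0444 CPM in LK2-ctrl cells, groups that did not overlap, and its log2 fold change of 2.08 ± 0.56 missed the threshold (adjusted p = 0.25). It was called there by the likelihood ratio test and with the replicate number added as a block, but not by DESeq2. In RERF-LC-AI the MEG9 value was -0.11 ± 0.53 (adjusted p = 0.95). The coding genes of the cluster, DLK1 and RTL1, stayed at or below 0.378 and 0.294 CPM in all 12 libraries.

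HOTAIR (chr12:53962312-53974954, minus strand, overlapping HOXC11 of the other strand) was at 0.116, 0.281 and 0.330 CPM in LC-AI-maspin and 0.309, 0.214 and 0.361 CPM in LC-AI-ctrl cells (log2 fold change -0.25 ± 0.48, adjusted p = 0.84). In LK-2 it was at 0.784, 1.04 and 1.07 CPM in LK2-maspin and 0.714, 0.960 and 0.378 CPM in LK2-ctrl cells (0.48 ± 0.34, adjusted p = 0.96). The groups overlapped in both lines. Among the HOXC genes around it, HOXC10 was at 6.40, 5.93 and 8.69 CPM in LK2-maspin and 2.73, 3.58 and 4.55 CPM in LK2-ctrl cells, without overlap, and its log2 fold change of 0.95 ± 0.20 missed the threshold (adjusted p = 0.078). HOXC10 was called there by the likelihood ratio test, by DESeq2, without a filter and with all 12 libraries in 1 fit. It was also called with the replicate number added as a block and without LK2-ctrl replicate 3. HOXC13 was likewise without overlap in LK-2 (0.74 ± 0.24, adjusted p = 0.47), HOXC11 was not (0.42 ± 0.32, adjusted p = 0.98), and HOXC12 stayed at or below 0.321 CPM throughout. In RERF-LC-AI, HOXC10 had a log2 fold change of 0.51 ± 0.36 (adjusted p = 0.46), HOXC11 of 0.58 ± 0.51 (0.60) and HOXC13 of -0.01 ± 0.32 (1.0). Non-overlapping groups were found in 11.9% of all genes tested in LK-2.

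Of 11 lncRNAs of the HOX clusters tested in LK-2, 0 rose, 1 fell and 10 did not pass, with a list median of 0.10 against 0.00 over all genes. The share called over all genes there was 0.533%. HOTAIRM1, the myeloid-associated lncRNA of the HOXA cluster, was at 4.50, 5.29 and 5.19 CPM in LK2-maspin and 9.63, 7.57 and 9.48 CPM in LK2-ctrl cells (log2 fold change -0.83 ± 0.14, adjusted p = 0.017). That call held in 2 of 6 fits that left out 1 library, with adjusted p between 0.026 and 0.099, and was lost without any of the LK2-maspin libraries (0.060, 0.099 and 0.056 without replicates 1, 2 and 3) or without LK2-ctrl replicate 1 (0.061). In RERF-LC-AI, 0 of 10 were called by edgeR, beside 10.5% of all genes (2 at an unadjusted p under 0.05, 0 by DESeq2 or the likelihood ratio test). Of 11 subunits of the Polycomb repressive complex 2, 2 fell and 9 did not pass in LC-AI-maspin cells, where 6.53% of all genes fell, with a list median of -0.01. EED, the core subunit that binds the methylated histone, was at 39.1, 41.0 and 39.7 CPM in LC-AI-maspin and 45.0, 52.3 and 48.1 CPM in LC-AI-ctrl cells (log2 fold change -0.28 ± 0.06, adjusted p = 0.0012), and the accessory subunit PHF19 at 152, 173 and 158 CPM against 184, 203 and 188 CPM (-0.25 ± 0.05, adjusted p = 0.0010). Both calls held in 6 of 6 fits that left out 1 library. With all 12 libraries in 1 fit EED passed (adjusted p = 0.021) and PHF19 did not (0.13). In LK-2, 0 of 11 were called by edgeR (1 at an unadjusted p under 0.05, 0 by DESeq2 or the likelihood ratio test).

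PVT1 (chromosome 8, plus strand) was at 15.3, 13.5 and 13.2 CPM in LC-AI-maspin and 13.3, 13.5 and 13.9 CPM in LC-AI-ctrl cells (log2 fold change 0.04 ± 0.08, adjusted p = 0.84). It was at 23.3, 21.2 and 23.5 CPM in LK2-maspin and 25.3, 23.3 and 22.0 CPM in LK2-ctrl cells (-0.05 ± 0.08, adjusted p = 1.0). Its neighbour MYC, the transcription factor gene, rose in LC-AI-maspin cells, at 196, 212 and 193 CPM against 175, 185 and 171 CPM in LC-AI-ctrl cells (0.18 ± 0.05, adjusted p = 0.015), a call that was lost without LC-AI-maspin replicate 2 (0.090), without LC-AI-ctrl replicate 3 (0.14) and with all 12 libraries in 1 fit (0.12). In LK-2 the MYC value was -0.06 ± 0.06 (adjusted p = 1.0). The difference between the lines was 0.24 ± 0.08 (adjusted p = 0.19) and did not pass. Over the 21 neighbours of the 10 lncRNAs, 16 were tested in RERF-LC-AI, of which 1 rose, 1 fell and 14 did not pass, with a median of 0.00. In LK-2, 0 of 18 were called by edgeR (5 at an unadjusted p under 0.05, 1 by DESeq2, 2 by the likelihood ratio test), with a median of 0.06. Of all genes tested, 4.01% rose and 6.53% fell in RERF-LC-AI, and 0.533% were called in LK-2.

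MIR31HG (chr9:21454268-21559798, minus strand), with IFNE inside its span on the same strand and MTAP to its right, was counted 288, 174 and 205 times in LK2-maspin and 208, 201 and 176 times in LK2-ctrl libraries. Scaled, that is 5.38, 4.41 and 4.40 CPM in LK2-maspin against 4.37, 3.71 and 3.91 CPM in LK2-ctrl cells. The groups were just apart, and the log2 fold change of 0.25 ± 0.15 did not pass the test (adjusted p = 0.91). In RERF-LC-AI it was counted 15, 12 and 24 times in LC-AI-maspin and 18, 6 and 14 times in LC-AI-ctrl libraries (0.20 ± 0.50, adjusted p = 0.89). MTAP, the methylthioadenosine phosphorylase gene, had a log2 fold change of -0.02 ± 0.06 in RERF-LC-AI (adjusted p = 0.90). In LK-2 the MTAP value was 0.08 ± 0.06 (adjusted p = 0.96) and the IFNE value 0.39 ± 0.28 (adjusted p = 0.97).

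All 10 lncRNAs passed the filter on low counts in both lines. In LK-2, 0 of 10 were called by edgeR, beside 0.533% of all genes tested. At an unadjusted p under 0.05 there were 0, by DESeq2 or the likelihood ratio test 0, and the smallest edgeR adjusted p was 0.82. DESeq2 gave no adjusted p for H19 there. The median log2 fold change of the 10 was 0.06, with 7 above and 3 below 0. In RERF-LC-AI, 1 of the 9 other than UCA1 was called (NEAT1), against 10.5% of all genes and 4.01% of all genes in the higher direction. The median over the 10, UCA1 included, was 0.02, with 5 above and 5 below 0. Of the 9 other than UCA1, 0 had groups that did not overlap in RERF-LC-AI, beside 25.1% of all genes. The groups of UCA1 did not overlap, but it was selected on that difference and is not counted here. In LK-2 MIR31HG was the 1 of 10 without overlap, near the 11.9% of all genes. The difference of the maspin effect between the lines, RERF-LC-AI minus LK-2, was tested for the 9 lncRNAs other than UCA1 in 1 fit over both lines, in which 1.76% of 28123 genes were called. Of the 9, 0 passed by edgeR (0 at an unadjusted p under 0.05, 0 by DESeq2 or the likelihood ratio test). For this difference DESeq2 gave no adjusted p for H19 and HOTAIR. The difference for NEAT1 was 0.34 ± 0.21 (adjusted p = 0.54) and that for MALAT1 -0.19 ± 0.13 (adjusted p = 0.62). Both passed when the replicate number was added as a block, at 0.35 for NEAT1 (adjusted p = 0.00020) and -0.18 for MALAT1 (adjusted p = 0.042). The 9 values without the block ran between -0.72 and 0.36.

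**Figure D4:**
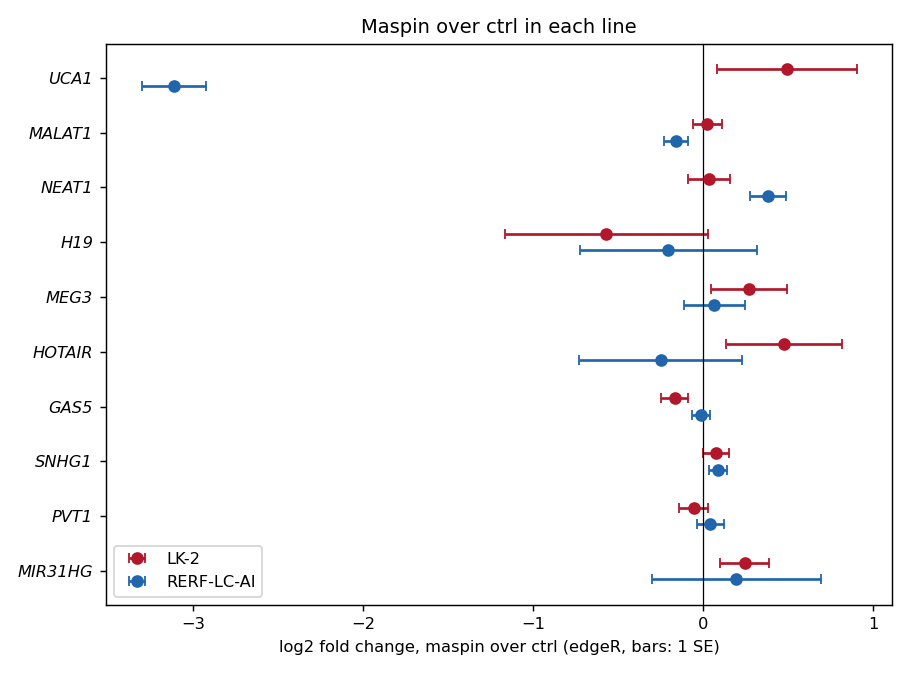
Log2 fold change of each lncRNA, maspin over ctrl (horizontal axis, bars of 1 SE), in LK-2 and RERF-LC-AI. UCA1 lies at -3.11 in RERF-LC-AI, away from the other values, which run between -0.57 and 0.49, and H19, at the lowest counts, has the widest bar in each line.

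Levels in the 2 lines are given side by side without a test, since the tables were made and scaled separately. MIR31HG was the lncRNA that differed most, at 3.71 to 5.38 CPM in the 6 LK-2 libraries and 0.107 to 0.360 CPM in the 6 RERF-LC-AI libraries, and its mean was 16.3-fold higher in LK2-ctrl than in LC-AI-ctrl cells. IFNE within its span ran the same way (0.609 to 1.42 CPM in LK-2, 0 to 0.179 CPM in RERF-LC-AI), and MTAP was at 97.2 to 104 CPM in LK-2 and 47.4 to 55.2 CPM in RERF-LC-AI. UCA1 was 5.68-fold lower in LK2-ctrl than in LC-AI-ctrl cells, and NEAT1 2.36-fold lower, in NEAT1 without overlap between the 6 libraries of each line. The UCA1 libraries overlapped between the lines, at 0.336 to 1.67 CPM in LK-2 and 0.453 to 5.45 CPM in RERF-LC-AI. Only LC-AI-ctrl libraries were above those of LK-2, and UCA1 was selected on the difference of that group from LC-AI-maspin. HOTAIR was 2.32-fold and PVT1 1.73-fold higher in LK2-ctrl than in LC-AI-ctrl cells, both without overlap. MYC was 1.83-fold and HOXC10 9.04-fold higher there. MALAT1, H19, MEG3, GAS5 and SNHG1 also overlapped between the lines, with ratios of 1.02 to 1.21 in either direction. IGF2, the neighbour of H19, was 11.7-fold lower in LK2-ctrl than in LC-AI-ctrl cells, and CYP4F11, a neighbour of UCA1, 19.1-fold higher.

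**Figure D5:**
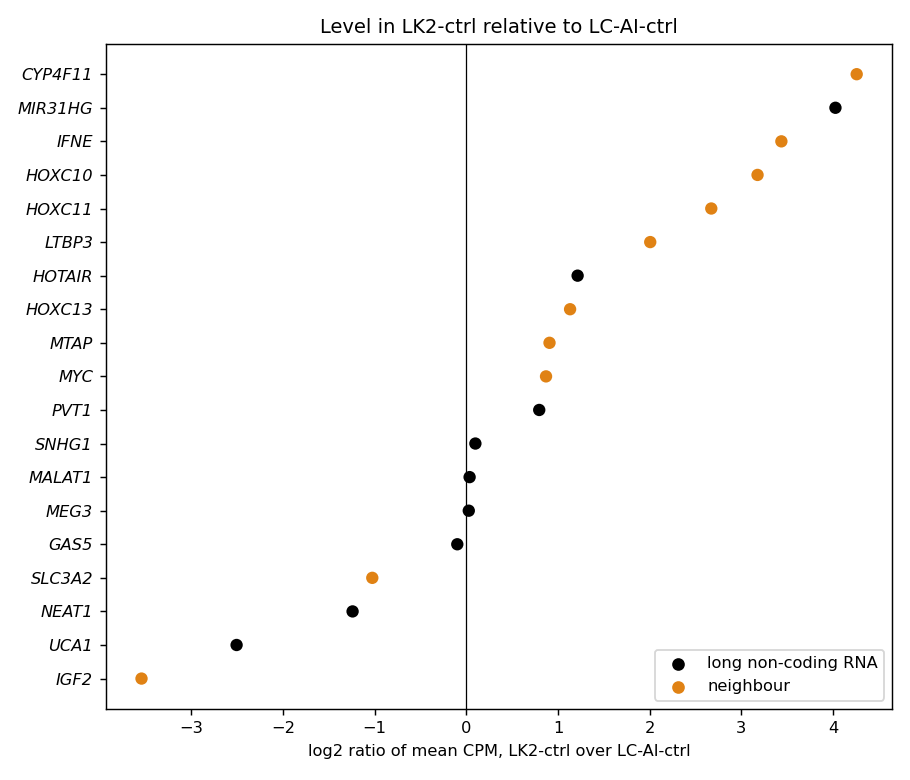
Log2 ratio of mean CPM, LK2-ctrl over LC-AI-ctrl (horizontal axis), for the lncRNAs (black) that reached 1 CPM in any library and for those of their neighbours (orange) that did so without overlap between the lines. MIR31HG at 4.03 and UCA1 at -2.51 are the lncRNAs farthest apart, while MALAT1, MEG3, GAS5 and SNHG1 lie within 0.10 of 0. UCA1 was selected on the difference of LC-AI-ctrl from LC-AI-maspin cells, and its libraries overlapped between the lines.

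In a wider list of 73 other cancer lncRNAs, 61 were tested in each line. In LC-AI-maspin cells 1 rose, 3 fell and 57 did not pass, while 10.5% of all genes were called, with a list median of 0.02 against 0.01 over all genes. KCNQ1OT1, the antisense transcript of the imprinted KCNQ1 locus, was at 129, 118 and 124 CPM in LC-AI-maspin and 107, 110 and 114 CPM in LC-AI-ctrl cells (log2 fold change 0.17 ± 0.05, adjusted p = 0.024), and was called in 2 of 6 fits that left out 1 library. It was lost without LC-AI-maspin replicate 1 (0.12) or 3 (0.11), without LC-AI-ctrl replicate 1 (0.093) or 2 (0.051) and with all 12 libraries in 1 fit (0.11). MAFG-DT, the divergent transcript of MAFG, was at 6.24, 6.22 and 6.18 CPM in LC-AI-maspin and 7.79, 8.58 and 8.22 CPM in LC-AI-ctrl cells (-0.40 ± 0.10, adjusted p = 0.0091), and was called in 6 of 6. The microRNA host genes MIR100HG (-0.27 ± 0.08, adjusted p = 0.038) and MIR503HG (-0.37 ± 0.11, adjusted p = 0.023) were each called in 3 of 6. MIR100HG was lost without LC-AI-maspin replicate 2 (0.27) or 3 (0.052) and without LC-AI-ctrl replicate 3 (0.31), and MIR503HG without LC-AI-maspin replicate 2 (0.16) and without LC-AI-ctrl replicate 1 (0.099) or 3 (0.18). Both were also lost with all 12 libraries in 1 fit (0.50 for MIR100HG, 0.31 for MIR503HG) and with library size only (0.14 and 0.088). In LK-2, 0 rose, 1 fell and 60 did not pass, while 0.533% of all genes were called. LINC00261, a lncRNA of the endoderm that neighbours FOXA2, was at 53.5, 48.8 and 50.6 CPM in LK2-maspin and 66.3, 70.3 and 66.5 CPM in LK2-ctrl cells (-0.41 ± 0.06, adjusted p = 0.014). It was called in 3 of 6, and lost without LK2-maspin replicate 2 (0.19) or 3 (0.079) and without LK2-ctrl replicate 2 (0.15). Over all 8 lists, 11 of 164 genes tested in RERF-LC-AI were called, beside 10.5% of all genes, and 4 of the 11 held in every fit that left out 1 library. In LK-2, 2 of 168 were called, beside 0.533% of all genes, and 0 held throughout.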

How the data were processed

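Strand-specific mRNA libraries were sequenced on an Illumina NovaSeq instrument. Per the labels, the authors used Trimmomatic 0.39, BWA 0.7.17, GRCh38.p13 and SAMtools (1.12 for LK-2, 1.10 for RERF-LC-AI), and they deposited raw counts of mapped reads per gene. The counting tool and its strand setting are not given in the sources used here. Overlapping antisense genes therefore cannot be told apart. Among counts of 1 to 9, 23.7% to 26.0% were odd, so both reads of a pair may have been counted, and counts are not independent molecules. A further 24 per-sample columns of normalized values and the authors' comparison columns (fold changes, p-values) were not used. Lines without a gene symbol (0.292% to 0.416% of counts) were dropped. Each line was fitted alone with edgeR 4.0.16 (TMM, filterByExpr with a minimum of 10 counts, quasi-likelihood F test). The likelihood ratio test that the study names and DESeq2 1.42.0 were alternatives, as were other scalings, filters and left-out libraries. The procedure was tested on simulated data. The SE is the log2 fold change over the square root of F, and CPM used TMM-scaled library sizes. Groups came from the labels. Chi-square per degree of freedom between libraries of 1 group was 4.70 to 26.5, and all libraries were counted apart. This value cannot show whether they were separate cultures, since counting both reads of a pair also raises it. Named were the 10 lncRNAs, the 21 neighbours (1 is not reported here), the called members of 7 further lists (at most 4 a line, by smallest adjusted p), the 5 genes most like UCA1, SERPINB5 and cell type markers. All members and lists were chosen with earlier results of these data known. Positions are RefSeq GRCh38.p14, and patch releases leave chromosome coordinates as they are. TP53COR1 of the cancer list had no match in the tables.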

Additional observations from a re-analysis of the deposited data

How the results depend on the processing

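The UCA1 log2 fold change in RERF-LC-AI ran between -3.12 and -3.08 over the other scalings, filters and tools and between -3.29 and -2.95 when 1 library was left out. The 10 lncRNAs called in LK-2 numbered 0 in every alternative except the replicate block, which called 1 (GAS5, adjusted p = 0.0042). In RERF-LC-AI, where 1 of 9 was called, the count was 0 at an adjusted p under 0.01, with DESeq2 and when both lines shared 1 fit, 2 (NEAT1 and MALAT1) without a filter and with the replicate block, and 0 to 1 without single libraries. The difference between the lines was called for 0 of 9, for 2 (NEAT1 and MALAT1) with the replicate block, and for 0 in every fit that left out 1 library. The replicate numbers were not taken as pairs: over all genes tested, the deviations of same-numbered libraries correlated at 0.154, 0.0144 and 0.164 in LK-2 and at 0.0437, 0.0533 and 0.00168 in RERF-LC-AI. Over genes above a log2 CPM of 3 they correlated at 0.745, 0.112 and 0.75 and at 0.369, 0.39 and 0.203, so this choice rests on the genes taken. As a hint from the data and not from the design, every library correlated best with its own number except replicate 3 of LC-AI-maspin and of LC-AI-ctrl over all genes and LK2-ctrl replicate 2 over the higher ones. With the block, 1190 genes were called in LK-2, against 140 without it, and 4081 in RERF-LC-AI, against 2655. Over all lists, the 2 genes called in LK-2 became 5 with the likelihood ratio test, 21 with the replicate block, 0 at an adjusted p under 0.01 and 0 to 3 without single libraries. The 11 called in RERF-LC-AI became 17 with library size only, 27 with the block, 2 when both lines shared 1 fit, 5 at an adjusted p under 0.01 and 5 to 13 without single libraries. Their direction also depended on the scaling. The 11 were 2 higher and 9 lower, against 6 and 6 with upper-quartile factors (12 called) and 11 and 6 with library size only. FRMD8, MIR100HG and MIR503HG were called under neither of these scalings, and the neighbours WDR74 and ZBTB37 under both. Over all genes, DESeq2 called 280 and the likelihood ratio test 314 in LK-2, and 985 and 884 for the difference, against 494. Of the 5 genes most like UCA1, 4 were shared on the log2(CPM + 0.5) scale. Signs turned for values near 0, none of which passed the test: GAS5 in RERF-LC-AI was 0.025 with library size only and 0.014 with upper-quartile factors, and the SNHG1 difference was -0.0304 with DESeq2, -0.0303 with RLE factors, -0.026 without a filter and -0.005 with at least 10 counts in every library. Leaving out single libraries gave ranges that crossed 0 in LK-2 for MALAT1 (-0.044 to 0.13), NEAT1 (-0.065 to 0.21) and SNHG1 (-0.0035 to 0.13). In RERF-LC-AI these were MEG3 (-0.0024 to 0.18), HOTAIR (-0.53 to 0.062), GAS5 (-0.069 to 0.022), PVT1 (-0.020 to 0.084) and MIR31HG (-0.17 to 0.54). For the difference they were H19 (-0.074 to 0.80), SNHG1 (-0.062 to 0.10) and MIR31HG (-0.41 to 0.28). The cause of these changes was not tested. H19, HOTAIR and MIR31HG could not be fitted in every line with at least 10 counts in every library. In RERF-LC-AI, DESeq2 gave no adjusted p for H19, HOTAIR and MIR31HG. Precision was limited by 3 libraries a group and, for H19 and HOTAIR, by counts of 3 to 52.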

Other observations

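TALAM1, the antisense partner of MALAT1, had 28.2% to 30.6% as many reads as MALAT1 over the 12 libraries, and it is added here after its values were seen. It was at 77.5, 74.6 and 82.6 CPM in LC-AI-maspin and 87.6, 75.9 and 97.2 CPM in LC-AI-ctrl cells, with a log2 fold change of -0.15 ± 0.06 (edgeR adjusted p = 0.15), beside -0.16 for MALAT1. Reads of the 2 strands cannot be told apart here.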
